A study of Homo sapiens with 18 samples.

Results

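The NRF2 targets and the glutathione system were described as a set of 37 named genes, chosen by gene name from the 50119 genes of the deposited table, and all 37 were found there. The set was split by role into 5 regulators, 11 genes of the glutathione arm, 4 of the thioredoxin arm, 4 of the pentose phosphate and NADPH arm, 5 aldo-keto reductases and 8 quinone, carbonyl and other detoxification genes. RNA sequencing of the human osteosarcoma (OS) cell line Saos-2, spelled Soas-2 in the labels and given there as wild type, compared ways of growing the cells with the tumor they form in mice. Each of 6 groups had 3 libraries. The D-2 group was grown flat and the D-3 group in Matrigel, both for 14 days. The DP-3 groups were printed in a bioink of methacrylated gelatin and alginate, set with blue light and calcium, and kept for 14 days (DP-3) or 1 day (DP-3 day 1). The FIT group was fresh tumor taken 2 weeks after Saos-2 cells in Matrigel were placed under the skin of 4-week-old female BALB/c nude mice, and the IT group was pieces of such tumor cultured on Matrigel for 14 days. A tumor was divided between culture and fresh use, nude mice keep most host cell types other than mature T cells, and no source used here says whether the 3 libraries of a group came from separate cultures or animals, so p-values measure only the spread between these libraries.

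NRF2, encoded by NFE2L2, is a transcription factor that KEAP1 holds back and marks for breakdown until oxidants or electrophiles modify KEAP1. NRF2 then pairs with a small MAF protein and binds antioxidant response elements, the sites that BACH1 otherwise occupies, near genes that make and recycle glutathione, reduce thioredoxin, supply NADPH and detoxify quinones and carbonyls. Solid tumors often depend on these systems to limit peroxide and lipid peroxide damage, and the cystine importer SLC7A11 with the lipid peroxidase GPX4 guards cells from ferroptosis.

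Levels are given as FPKM, fragments per kilobase of transcript scaled to the size of the library, with replicates 1, 2 and 3 in that order, and means as mean ± SD over 3 libraries. Fold changes are on the log2 scale with their standard error and come from edgeR's quasi-likelihood test on the deposited estimated counts with TMM scaling, which sets libraries to a common level over most genes. A member was called a DEG at a Benjamini-Hochberg adjusted p below 0.05 over all tested genes with a change of 2-fold or more. A gene was tested where 3 or more of the 6 libraries of a comparison reached 0.1 FPKM. For a single gene, an exact permutation test of 3 against 3 libraries cannot give a two-sided p below 0.1.

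Library totals ran from 23721666 estimated counts in FIT replicate 3 to 79082786 in D-2 replicate 3, and no 2 libraries held identical values. The summed fibroblast markers (3 of 5 with a mean of at least 1 FPKM in FIT) were 37.3 to 48.1 FPKM in FIT and 8.46 to 30.2 elsewhere. The fibroblast sum was mostly COL1A1 and PDGFRA. COL3A1 ran from 0 to 3.94 FPKM among the FIT libraries and DCN did not exceed 0.0858 FPKM anywhere. LUM went the other way, with its lowest mean in FIT (0.302 FPKM) and its highest in DP-3 (0.922 FPKM). The summed keratinocyte markers were 2.15 to 11.1 FPKM in FIT, with KRT1 at 0, and at most 0.37 elsewhere, and the endothelial sum was 3.82 to 6.51 FPKM in FIT and IT against 1.03 to 2.29 in the other groups. That sum was mostly PECAM1, while VWF and KDR were near 0 everywhere and lower in FIT than in D-3 or DP-3 day 1. CDH5 and TEK went with PECAM1 at lower levels. Their means were 0.656 and 0.37 FPKM in FIT, 0.844 and 0.31 in IT and at most 0.105 and 0.101 elsewhere. The macrophage gene CD68 was present everywhere at 18.6 FPKM or more, ADGRE1 averaged 3.88 to 5.10 FPKM and CSF1R 0.703 to 1.82, lowest in FIT, while PTPRC and CD14 did not exceed 0.254 FPKM. The part of these cells in the differences from FIT was not tested. Of the markers of the osteoblast lineage that Saos-2 belongs to, ALPL, SP7 and IBSP did not exceed 0.148 FPKM in any library, while RUNX2 was 0.61 to 2.41 FPKM. In such bulk samples, fewer cells of a type and less RNA per cell cannot be told apart.

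Most members differed somewhere among the 6 groups, and fresh tumor was most often the low end. In one fit of all 18 libraries, 28 of 37 members passed the edgeR F test at an adjusted p below 0.05, beside 37.3% of all 25977 genes tested. OSGIN1 (edgeR adjusted p = 4.23e-07), PIR (edgeR adjusted p = 2.12e-05) and SQSTM1 (edgeR adjusted p = 2.27e-05) led. The 9 that did not pass were NFE2L2, GCLC, GSR, GPX2, GPX4, TALDO1, AKR1B1, CBR3 and AIFM2. Both the 28 and the 37 include GPX3, which passed the FPKM filter only through DP-3 day 1, where it was high, so its result is given only as a description. FIT held the lowest mean FPKM for 21 of 37 members, beside 15.0% of all genes, and for 23 (16% of genes) when FPKM was divided by the TMM factor. DP-3 day 1 held the highest mean FPKM for 19 members (26.0% of genes), but for 12 (18.9% of genes) with the TMM factor, so that count moved with the scaling. The 19 and the 12 also include GPX3.

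**Figure D1:**
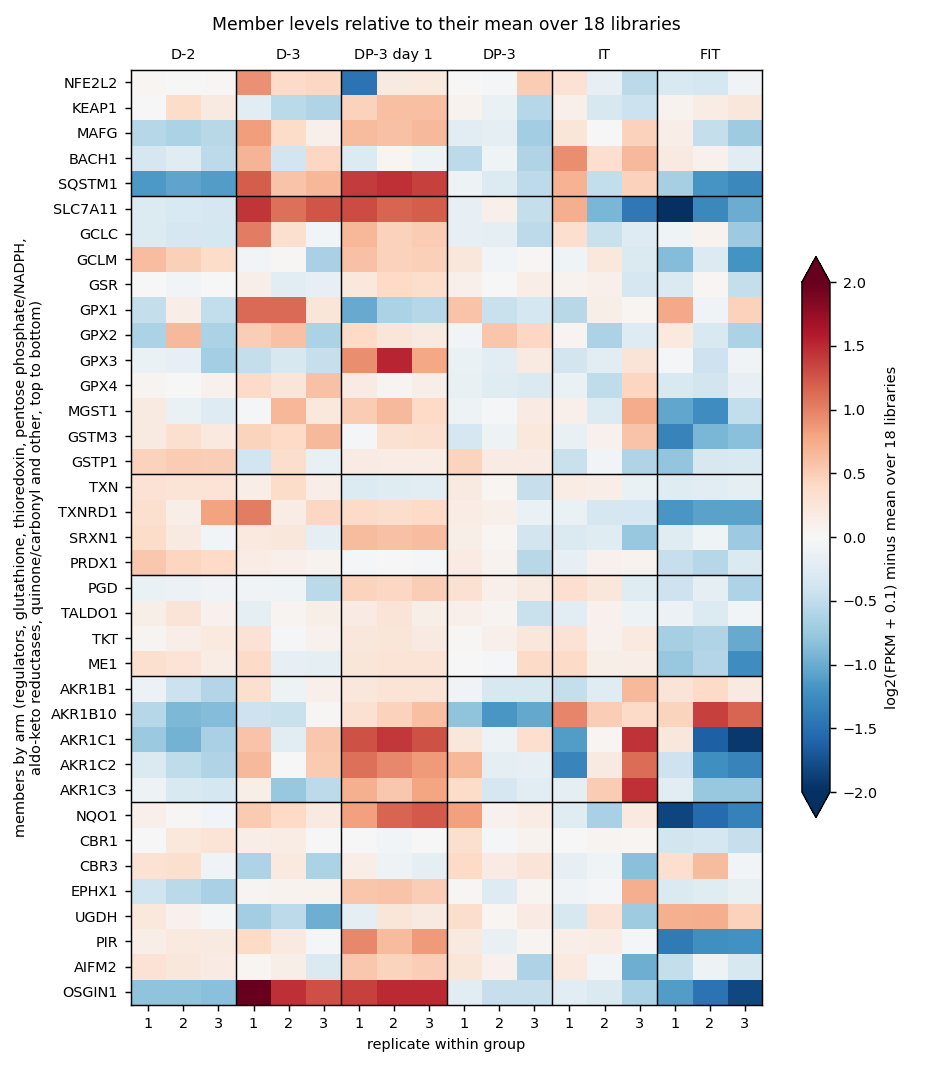
Level of the 37 members (vertical axis, ordered by arm) in 18 libraries (horizontal axis, 3 replicates in each of 6 groups), as log2(FPKM + 0.1) minus the mean of the member over all libraries. SQSTM1, SLC7A11 and OSGIN1 are red in all libraries of D-3 and DP-3 day 1, and NQO1, TXNRD1, PIR, MGST1 and GSTM3 are blue in all 3 FIT libraries.

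The choice of scaling and fit mattered most for DP-3 day 1. The edgeR fit with TMM was set beside limma on log2(FPKM + 0.1), which changes the pseudocount and the fit along with the scaling. With limma, the median of all genes moved by 0.25 on the log2 scale in DP-3 day 1 against D-2 and by 0.20 in D-3 against D-2. It moved by -0.23 in DP-3 against DP-3 day 1 and by -0.10 to 0.07 in the comparisons with FIT. Relative to the median of all genes, the median of the members was 0.57, 0.44, 0.61 and 0.49 higher in the 4 comparisons with FIT (D-2, D-3, DP-3, IT) with TMM. It was 0.52, 0.46, 0.54 and 0.43 higher with limma on FPKM. Between cultures this difference was -0.12 in DP-3 against DP-3 day 1, -0.16 in D-3 against D-2 and -0.05 in DP-3 day 1 against D-2 with TMM.

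To show which members carry the letters that NRF2 is known to read, the sequence TGACNNNGC, the core of the antioxidant response element, were searched on both strands of RefSeq promoter windows of GRCh38.p14, each 300 bases long with 250 before and 50 after a start. The motif stood in 13.3% of all 35116 windows and in 27.7% of the 47 windows of 32 matched members. SLC7A11, GSR, PRDX1, AKR1B10 and CBR3 were not matched. The 12 members with a match were KEAP1, GCLM, GPX2, MGST1, GSTP1, TXNRD1, PGD, ME1, CBR1, EPHX1, PIR and AIFM2. For the 6 of them called in a comparison with FIT below, a stretch of 29 bases is shown 5′ to 3′ on the strand that carries the motif, whose letters are in capitals. TXNRD1 lies at chr12:104215670-104215698, PIR at chrX:15493289-15493317, GCLM at chr1:93909446-93909474, GSTP1 at chr11:67583736-67583764, MGST1 at chr12:16347135-16347163 and ME1 at chr6:83431170-83431198. A single match is shown for each gene, although TXNRD1 held 2 more and ME1 held 1 more, all on the strand opposite to the gene. The match shown lies on the strand of the gene in TXNRD1, GSTP1, MGST1 and ME1 and on the opposite strand in PIR and GCLM. A match is a description of letters, and the windows of NQO1, SQSTM1 and OSGIN1 held none. Sequence more than 250 bases before or 50 after a start was not searched. A window without a match therefore does not mean that the gene lacks the element.
TXNRD1: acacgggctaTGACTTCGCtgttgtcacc
PIR: agcctcaccgTGACTCAGCgcttcgcggc
GCLM: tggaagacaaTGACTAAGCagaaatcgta
GSTP1: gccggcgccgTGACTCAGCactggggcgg
MGST1: ggggacatcgTGACAAAGCaaattgtctg
ME1: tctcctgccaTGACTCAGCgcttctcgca

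The comparisons with FIT asked how far each culture differed from fresh tumor, and they share the same 3 FIT libraries. In the D-2 group, 11 members were upregulated and 1, AKR1B10, was downregulated among 35 tested, beside 3.83% and 10.8% of all genes. The members reached a median log2 fold change of 0.48, and all genes -0.09. The 11 upregulated members came from the glutathione arm (SLC7A11, GCLM, MGST1, GSTM3 and GSTP1), the thioredoxin arm (TXNRD1 and PRDX1), the NADPH arm (TKT and ME1) and the quinone group (NQO1 and PIR). No regulator was called, and GPX2 and GPX3 were below the FPKM minimum. The call of SLC7A11 was lost without D-2 replicate 1, D-2 replicate 2 or FIT replicate 1, that of MGST1 without D-2 replicate 1, FIT replicate 1 or FIT replicate 2, that of GSTP1 without FIT replicate 1, that of PRDX1 without FIT replicate 1 or 2 and that of TKT without D-2 replicate 3 or FIT replicate 3. MGST1, GSTP1, PRDX1 and TKT lay just above 2-fold, and the count was 8, without these 4, at an FPKM minimum of 1 and with limma on log2(FPKM + 0.1).

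In the D-3 group against FIT, 9 members were upregulated and 2, UGDH and AKR1B10, were downregulated among 35 tested, beside 4.29% and 2.17% of all genes. The upregulated members were SQSTM1, SLC7A11, MGST1, GSTM3, TXNRD1, AKR1C2, NQO1, PIR and OSGIN1. The median over all 35 members was 0.46, against 0.02 for all genes. The count was 6 without D-3 replicate 1 and 6 without D-3 replicate 3, under both of which MGST1, GSTM3, PIR, AKR1B10 and AKR1C2 were lost. MGST1 held only without FIT replicate 3. AKR1B10 was also lost without D-3 replicate 2 or FIT replicate 2, AKR1C2 without FIT replicate 2 or 3 and PIR without FIT replicate 1.

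In the DP-3 group against FIT, 9 members were upregulated and AKR1B10 was downregulated among 35 tested, beside 1.66% and 3.16% of all genes, with a median of 0.55 for the members and -0.06 for all genes. The upregulated members were SLC7A11, MGST1, GSTM3, TXNRD1, ME1, AKR1C2, NQO1, PIR and OSGIN1. These calls lay close to the threshold: NQO1 and TXNRD1 held in all 6 fits that left out a library, while the count of 10 dropped to 2, 3 and 2 without DP-3 replicates 1, 2 and 3 and to 4, 5 and 8 without FIT replicates 1, 2 and 3. AKR1C2 and ME1 held in 0 of the 6 fits, and SLC7A11, MGST1, GSTM3 and OSGIN1 held only without FIT replicate 3. PIR held only without DP-3 replicate 2 or FIT replicate 3, and AKR1B10 was lost without each DP-3 replicate. With limma on log2(FPKM + 1), 3 members were upregulated and 1 downregulated.

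In the IT group against FIT, 0 of 35 members and 0 of 21183 genes (0.0%) were called by edgeR. At an unadjusted p below 0.05 there were 17 members, beside 12.7% of all genes (2693). DESeq2 called 8 members, all higher in IT, beside 3.12% of genes, and one edgeR fit of all 18 libraries called the same 8, beside 2.05% of genes: SQSTM1, MGST1, GSTM3, ME1, AKR1C3, NQO1, PIR and OSGIN1. For 15 members, beside 11.1% of genes, all 3 IT libraries lay above all 3 FIT libraries. The median of the members was 0.50, against 0.01 for all genes.

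**Figure D2:**
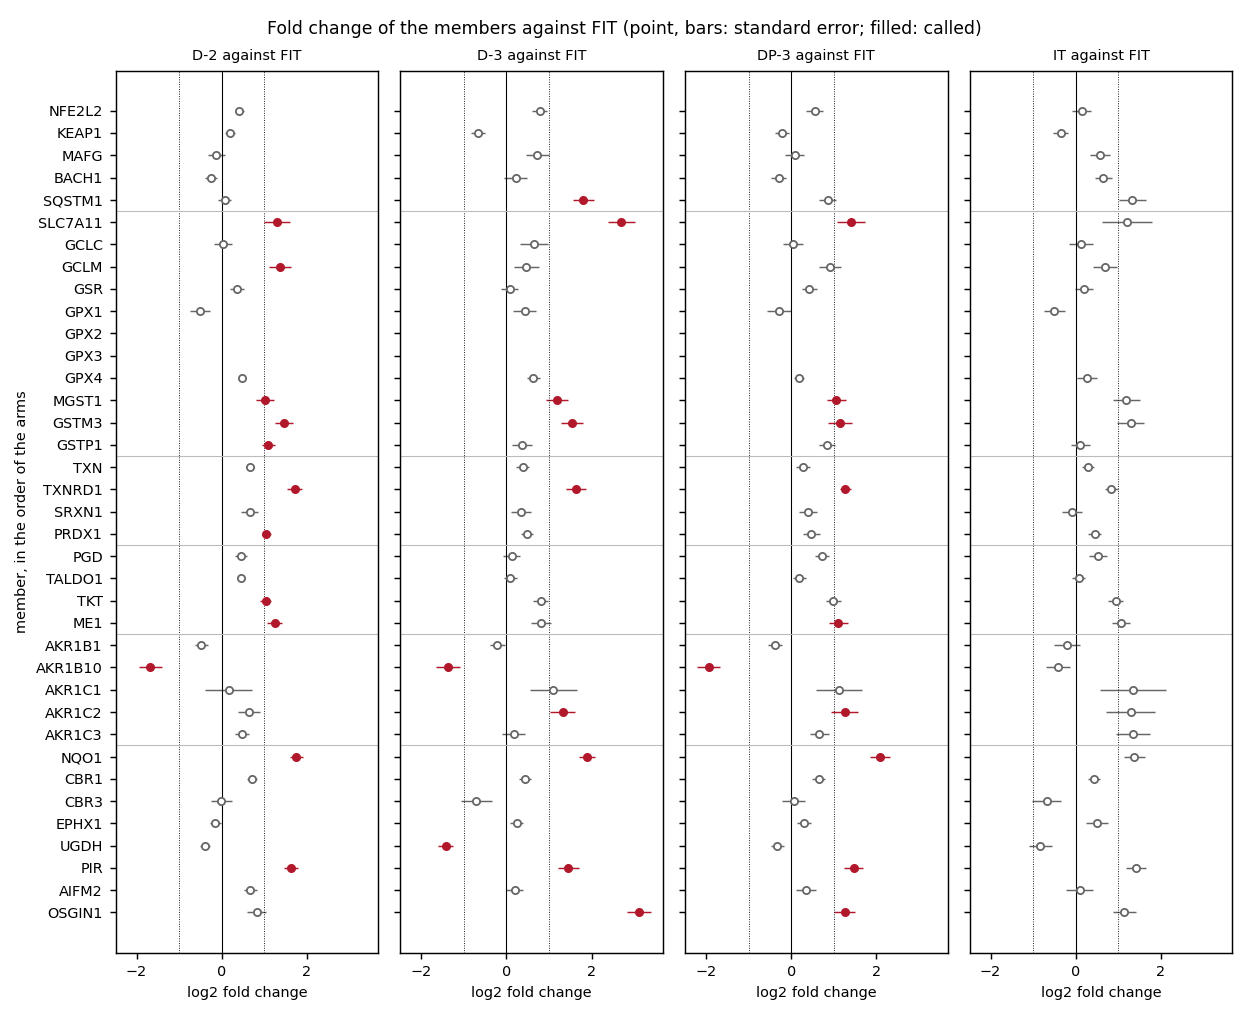
Log2 fold change of each member (vertical axis, by arm) against FIT, in a panel each for D-2, D-3, DP-3, IT (same horizontal axis), with bars of 1 standard error, filled points for DEGs and dotted lines at a 2-fold change. Points of NQO1, TXNRD1, PIR, MGST1 and GSTM3 lie right of 0 in every panel, AKR1B10 and UGDH left of 0, and the IT panel has no filled point.

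Of the 37 members, 7 were DEGs in each of D-2, D-3 and DP-3 against FIT (SLC7A11, MGST1, GSTM3, TXNRD1, AKR1B10, NQO1 and PIR) and 16 in at least 1 of them. Since the 3 comparisons share their FIT libraries, this overlap was not tested.

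The comparisons between cultures turned on fewer members. In DP-3 against DP-3 day 1, which asked what changed between the early and late day in the bioink, 4 of 37 members were downregulated and 0 upregulated, beside 5.76% and 1.81% of all genes: OSGIN1, SQSTM1, AKR1B10 and SLC7A11. All 4 held in each of the 6 fits that left out a library, and the count was 7 without DP-3 replicate 3. In D-3 against D-2, which compared Matrigel with flat culture, OSGIN1, SQSTM1 and SLC7A11 were upregulated and UGDH was downregulated among 36 tested, beside 14.6% and 3.95% of all genes. The count was 7 without D-3 replicate 2. In DP-3 day 1 against D-2, 6 of 36 members were upregulated and 0 downregulated, beside 13.1% and 4.13% of all genes: SQSTM1, GPX3, OSGIN1, AKR1C1, SLC7A11 and AKR1C2. Both the 6 and the 36 include GPX3, which passed the filter only through DP-3 day 1, where it was high. With or without GPX3, the share of upregulated members was close to that of all genes. Both comparisons with D-2 share its libraries, DP-3 day 1 is shared by a pair of comparisons, and the day differs along with the culture in the last one, so that time and culture cannot be told apart there.

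**Figure D3:**
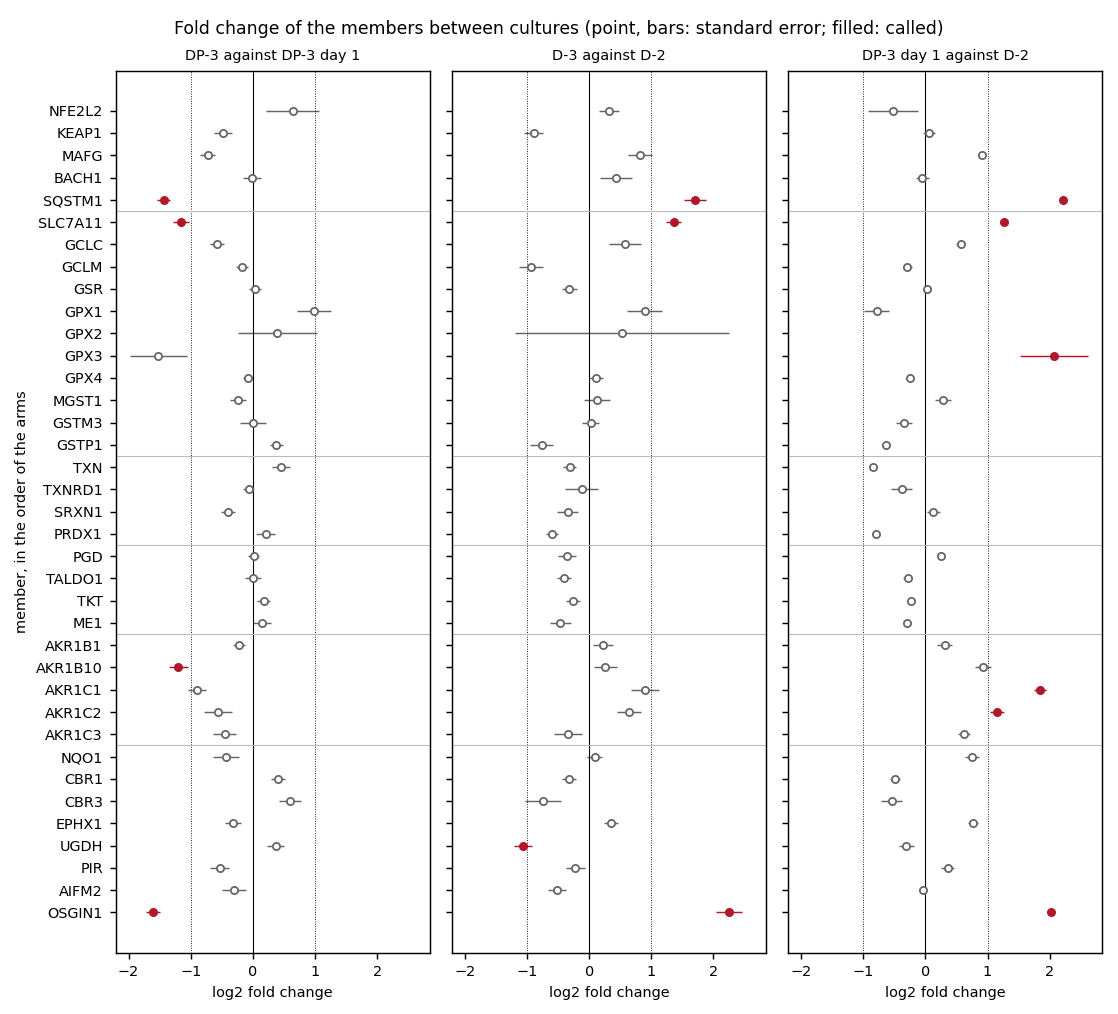
Log2 fold change of each member (vertical axis, by arm) in DP-3 against DP-3 day 1, D-3 against D-2 and DP-3 day 1 against D-2 (panels, same horizontal axis), with bars of 1 standard error, filled points for DEGs and dotted lines at a 2-fold change. SQSTM1, SLC7A11 and OSGIN1 are filled in all 3 panels, to the left in the first and to the right in the others.

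Among the regulators, SQSTM1 varied most, while NFE2L2 itself was not called in any comparison. SQSTM1 encodes p62, the autophagy receptor that also binds KEAP1 (chr5:179806398-179838078, plus strand). It stood at 45, 47.8 and 45.9 FPKM in D-2, at 229.9, 148.9 and 159.0 in D-3 and at 263.2, 276.3 and 257.5 in DP-3 day 1. It stood at 92.9, 82.5 and 69.6 FPKM in DP-3, at 161.8, 70.9 and 137.8 in IT and at 63.3, 44.0 and 40.6 in FIT. All libraries of D-3 and DP-3 day 1 lay above those of D-2, DP-3 and FIT, and the IT libraries overlapped those of D-3 and DP-3. SQSTM1 rose by 2.21 ± 0.05 on the log2 scale in DP-3 day 1 against D-2 (edgeR adjusted p = 1.76e-05), by 1.70 ± 0.18 in D-3 against D-2 (edgeR adjusted p = 0.00182) and by 1.81 ± 0.24 in D-3 against FIT (edgeR adjusted p = 0.00657). It fell by 1.44 ± 0.11 from day 1 to day 14 of DP-3 (edgeR adjusted p = 0.00141). Its log2 fold change was 1.33 ± 0.31 in IT against FIT, with an edgeR adjusted p of 0.208 and a DESeq2 adjusted p of 0.00573.

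NFE2L2 averaged 8.46 FPKM in FIT to 15.1 in D-3. Its log2 fold change against FIT was 0.41 ± 0.10 in D-2 and 0.78 ± 0.19 in D-3. Both were past the adjusted threshold (edgeR adjusted p of 0.0216 and 0.0415) but short of 2-fold. In DP-3 and IT against FIT it was 0.55 ± 0.20 and 0.13 ± 0.22 (edgeR adjusted p of 0.125 and 0.85). DP-3 day 1 replicate 1 stood apart for this gene at 3.53 FPKM (1212 estimated counts), against 11.35 and 11.4 FPKM (3883 and 3845 estimated counts) in replicates 2 and 3, although replicates of this group were otherwise the closest of all. KEAP1, the inhibitor, averaged 14.1 FPKM in D-3, 16.8 in IT, 16.9 in DP-3, 21.4 in FIT, 21.96 in D-2 and 28.4 in DP-3 day 1. Its log2 fold change in D-3 against D-2 was -0.89 ± 0.15, past the adjusted threshold (edgeR adjusted p = 0.0053) but short of 2-fold. MAFG, a small MAF partner, had a log2 fold change of 0.91 ± 0.05 in DP-3 day 1 against D-2 (edgeR adjusted p = 4.09e-05), also short of 2-fold but past it with limma on log2(FPKM + 0.1) (1.21), and averaged 5.61 FPKM in D-2 and 13.1 in DP-3 day 1. BACH1, the repressor, was highest in IT at 13.8, 9.04 and 11.3 FPKM, above all 3 FIT libraries at 8.08, 7.62 and 6.14, with a log2 fold change of 0.64 ± 0.20 (edgeR adjusted p = 0.264).

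In the glutathione arm, the cystine importer SLC7A11 was the member called most often, in 6 of 7 comparisons. It stood at 2.68, 2.63 and 2.58 FPKM in D-2, at 8.96, 7.13 and 7.98 in D-3 and at 8.245, 7.46 and 7.685 in DP-3 day 1. It stood at 2.91, 3.52 and 2.32 FPKM in DP-3, at 5.47, 1.69 and 1.15 in IT and at 0.676, 1.29 and 1.60 in FIT. The D-3 and DP-3 day 1 libraries lay above all others, FIT lay below the other cultures of the line, and 2 IT libraries lay above FIT and 1 inside its range. SLC7A11 rose by 2.70 ± 0.31 on the log2 scale in D-3 against FIT (edgeR adjusted p = 0.00396), 1.41 ± 0.32 in DP-3 against FIT (edgeR adjusted p = 0.0399) and 1.3 ± 0.30 in D-2 against FIT (edgeR adjusted p = 0.0175). The DP-3 call held only without FIT replicate 3, and the D-2 call was lost when FIT replicate 1 or either of D-2 replicates 1 and 2 was left out. Between cultures, it rose by 1.36 ± 0.12 in D-3 and by 1.26 ± 0.06 in DP-3 day 1 against D-2, and fell by 1.16 ± 0.13 from day 1 to day 14 of DP-3 (edgeR adjusted p of 0.00134, 2.23e-05 and 0.00281). The last call was lost in one edgeR fit of all 18 libraries (edgeR adjusted p = 0.0769).

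The next step, the ligation of cysteine to glutamate, is carried out by GCLC with its modifier GCLM, of which GCLM was called in D-2 against FIT and GCLC in no comparison. GCLM stood at 19.1, 17.3 and 16.1 FPKM in D-2, at 12.02, 12.7 and 7.92 in D-3, at 18.7, 17.2 and 17.4 in DP-3 day 1, at 14.5, 11.98 and 12.6 in DP-3, at 11.8, 14.4 and 10.2 in IT and at 6.78, 10.3 and 5.38 in FIT. It rose by 1.37 ± 0.25 on the log2 scale in D-2 against FIT (edgeR adjusted p = 0.00839), with no overlap between libraries. GCLC averaged 3.54 FPKM in D-2 and 3.83 in FIT, with a log2 fold change of 0.03 ± 0.22 (edgeR adjusted p = 0.925) that had no stable sign, and its highest mean was 6.51 in DP-3 day 1. The ratio of GCLM to GCLC was 4.94 ± 0.29 in D-2, 3.63 ± 0.52 in DP-3, 3.10 ± 1.21 in IT, 2.73 ± 0.09 in DP-3 day 1, 1.96 ± 0.31 in FIT and 1.82 ± 0.48 in D-3, so all D-2 libraries lay above those of every other group and the FIT and D-3 ranges overlapped.

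The glutathione transferases MGST1, GSTM3 and GSTP1 conjugate glutathione to electrophiles, and all 3 had their lowest mean in FIT. GSTM3 stood at 0.828, 1.14 and 1.20 FPKM in FIT and at 1.75 to 3.57 in the other 15 libraries. It rose by 1.47 ± 0.21 on the log2 scale in D-2, by 1.53 ± 0.26 in D-3 and by 1.14 ± 0.28 in DP-3 against FIT (edgeR adjusted p of 0.00393, 0.0139 and 0.0482), with the D-3 call lost without D-3 replicate 1 or 3 and the DP-3 call held only without FIT replicate 3. MGST1, the membrane-bound form, stood at 2.07, 1.78 and 3.06 FPKM in FIT and at 3.59 to 7.34 elsewhere, and rose by 1.02 ± 0.22 in D-2, by 1.19 ± 0.26 in D-3 and by 1.06 ± 0.23 in DP-3 against FIT (edgeR adjusted p of 0.0137, 0.0313 and 0.0337). The D-2 call was lost without D-2 replicate 1 or FIT replicate 1 or 2, and the D-3 and DP-3 calls held only without FIT replicate 3. GSTP1 was far more abundant per length, at 118.7, 122.5 and 121.1 FPKM in D-2 against 49.9, 68.8 and 70.1 in FIT, and rose by 1.09 ± 0.15 in D-2 (edgeR adjusted p = 0.0039, lost without FIT replicate 1). Unlike GSTM3 and MGST1, GSTP1 in FIT overlapped IT (63.6, 82.7 and 57.1 FPKM) and D-3 (66.3, 109.8 and 78.15 FPKM).

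Of the glutathione peroxidases among the members, GPX1 and GPX4 were not called against FIT, nor was glutathione reductase, and GPX2 and GPX3 were not tested there. GPX1, the cytosolic peroxidase, averaged 37.7 FPKM in DP-3 day 1 and 115.4 in D-3, with 136.1, 136.8 and 73.4 in the D-3 libraries, and GPX4 stayed between 33.7 and 71.8 FPKM in all 18 libraries. All GPX4 libraries of D-2 and D-3 lay above FIT, by 0.48 ± 0.09 and 0.63 ± 0.15 on the log2 scale. These changes passed the adjusted threshold (edgeR adjusted p of 0.00831 and 0.0386) but were short of 2-fold. DP-3 and IT overlapped FIT for GPX4. GSR, which regenerates glutathione, stayed between 12.8 and 23.6 FPKM. GPX2 did not exceed 0.143 FPKM or 20 estimated counts in any library, too little to compare groups. GPX3 passed the filter in DP-3 day 1 against D-2 only through DP-3 day 1 (0.281, 0.471 and 0.241 FPKM, against 0.081, 0.079 and 0.025 in D-2), and its call there is given only as a description.

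**Figure D4:**
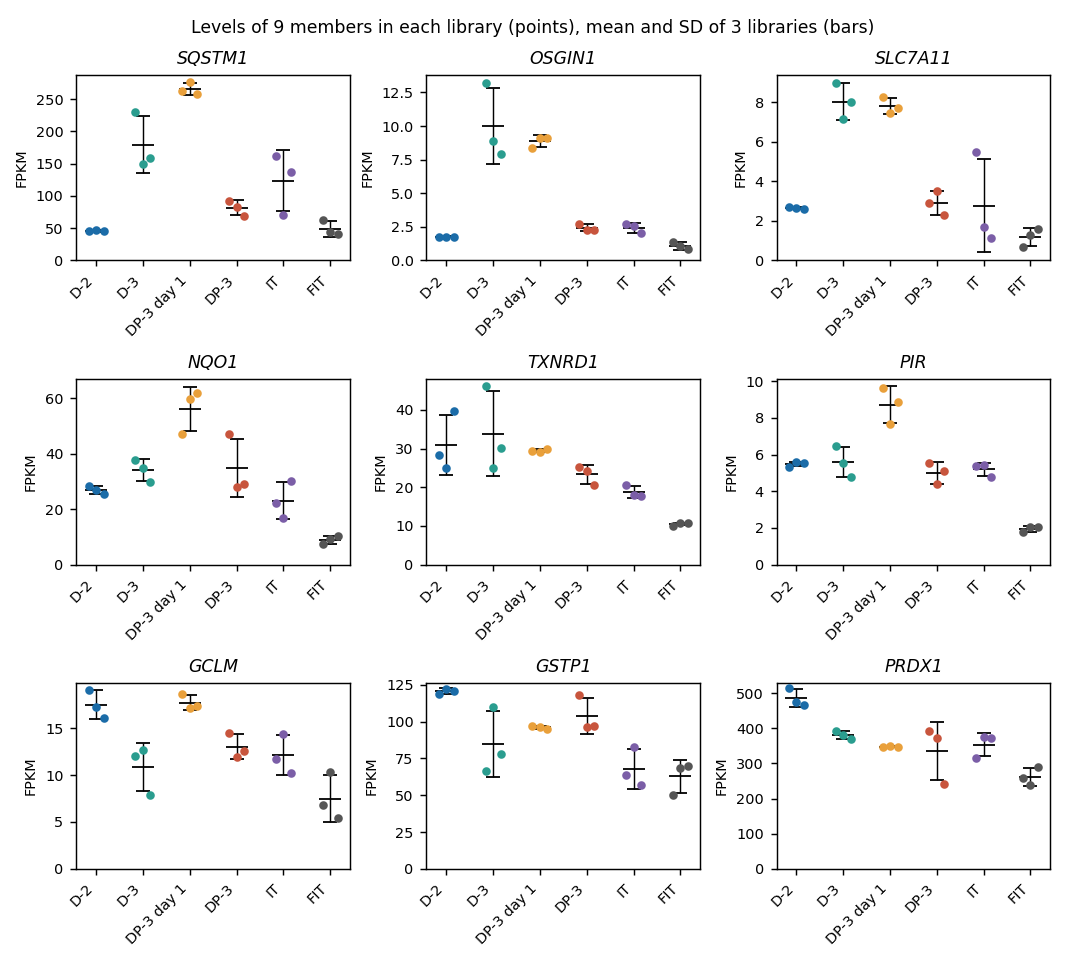
FPKM of 9 members (panels, vertical axis from 0) in each library of the 6 groups (points), with the mean and SD of 3 libraries (bars). SQSTM1, OSGIN1 and SLC7A11 are highest in D-3 and DP-3 day 1, while NQO1, TXNRD1 and PIR are lowest in FIT with no overlap with any other group.

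In the thioredoxin arm, the reductase TXNRD1 separated fresh tumor from every culture. It stood at 28.2, 24.9 and 39.8 FPKM in D-2, at 46.2, 25.1 and 30.3 in D-3 and at 29.4, 28.98 and 29.9 in DP-3 day 1. It stood at 25.2, 24.2 and 20.6 FPKM in DP-3, at 20.6, 17.9 and 17.8 in IT and at 10.1, 10.7 and 10.7 in FIT. The lowest library of another group stood at 17.8 FPKM, and the D-2 and D-3 libraries overlapped. TXNRD1 rose by 1.71 ± 0.18 on the log2 scale in D-2, by 1.63 ± 0.23 in D-3 and by 1.27 ± 0.13 in DP-3 against FIT (edgeR adjusted p of 0.00211, 0.00836 and 0.00686), and all 3 calls held in every fit that left out a library. Its log2 fold change was 0.83 ± 0.14 in IT against FIT (edgeR adjusted p = 0.16).

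Thioredoxin itself (TXN) was not called in any comparison. TXN averaged 145.9 FPKM in DP-3 day 1, 148.7 in FIT, 166.4 in DP-3, 180.5 in IT, 201.2 in D-3 and 210.3 in D-2. The ratio of TXN to TXNRD1 was 14.2 ± 0.39 in FIT, 9.64 ± 0.92 in IT and 4.96 ± 0.11 in DP-3 day 1, and every FIT library lay above the other 15. PRDX1, the peroxiredoxin that thioredoxin reduces, was the most abundant member per length in D-2, at 515.2, 475.6 and 466.0 FPKM against 257.9, 238.1 and 289.2 in FIT, and rose by 1.05 ± 0.10 on the log2 scale (edgeR adjusted p = 0.00184, lost without FIT replicate 1 or 2). SRXN1, which restores overoxidised peroxiredoxins, averaged 11.0 FPKM in IT, 11.6 in FIT and 22.4 in DP-3 day 1, with no call.

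In the pentose phosphate and NADPH arm, TKT and ME1 were low in FIT and PGD and TALDO1 were not called. ME1, the malic enzyme that makes NADPH, stood at 27.2, 26.4 and 24.2 FPKM in D-2, at 28.4, 19.5 and 19.3 in D-3, at 25.9, 26.4 and 26.5 in DP-3 day 1, at 21.9, 21.5 and 28.4 in DP-3, at 28.4, 23.6 and 24.04 in IT and at 12.9, 14.5 and 9.14 in FIT. All 15 culture libraries lay above FIT and overlapped among themselves. ME1 rose by 1.24 ± 0.18 on the log2 scale in D-2 (edgeR adjusted p = 0.00436) and by 1.10 ± 0.23 in DP-3 against FIT (edgeR adjusted p = 0.0307, lost whichever of the 6 libraries was left out). TKT, the transketolase, averaged 23.2 ± 3.35 FPKM in FIT and 42.3 to 45.2 in the other groups, and rose by 1.03 ± 0.14 in D-2 (edgeR adjusted p = 0.00341), a call lost without D-2 replicate 3 or FIT replicate 3, at an FPKM minimum of 1 (0.90) and with limma on log2(FPKM + 0.1) (0.89). PGD, which makes NADPH in the oxidative branch, averaged 35.4 FPKM in FIT and 64.1 in DP-3 day 1, and TALDO1 averaged 28.9 FPKM in FIT and 36.2 in DP-3 day 1. The summed FPKM of the arm was 99.7 ± 8.99 in FIT and 137.2 to 171.9 in the other groups, with no overlap of libraries.

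The aldo-keto reductases, which reduce aldehydes and ketones with NADPH, did not share an order: AKR1B1 and AKR1B10 had their highest mean in FIT, AKR1C1 and AKR1C2 in DP-3 day 1 and AKR1C3 in IT. AKR1B10, which reduces retinal and lipid aldehydes, stood at 7.12, 5.65 and 5.76 FPKM in D-2, at 7.94, 7.73 and 10.7 in D-3 and at 13.1, 14.6 and 16.1 in DP-3 day 1. It stood at 5.99, 4.68 and 5.14 FPKM in DP-3, at 20.8, 14.9 and 13.8 in IT and at 14.4, 27.4 and 23.8 in FIT. D-2, D-3 and DP-3 lay below all libraries of IT and FIT, and DP-3 day 1 overlapped both tissue groups. AKR1B10 fell by 1.68 ± 0.26 on the log2 scale in D-2, by 1.38 ± 0.28 in D-3 and by 1.94 ± 0.28 in DP-3 against FIT (edgeR adjusted p of 0.00513, 0.0248 and 0.0141), and by 1.20 ± 0.15 from day 1 to day 14 of DP-3 (edgeR adjusted p = 0.00332). The D-2 call held whichever library was left out, the D-3 call was lost without each D-3 replicate or FIT replicate 2, and the DP-3 call without each DP-3 replicate. Its relative on chromosome 7, AKR1B1, was much more abundant per length at 204.7 to 482.2 FPKM and was not called. AKR1B1 averaged 369.7 FPKM in FIT, close to the 366.1 of DP-3 day 1, and 238.5 in D-2. The ratio of AKR1B1 to AKR1B10 was 49.4 ± 2.34 in DP-3 and 18.1 ± 6.22 in FIT, with no overlap.

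AKR1C1, AKR1C2 and AKR1C3 lie side by side on chromosome 10 and act on steroids and prostaglandins. AKR1C1 and AKR1C2 are near-identical, so the division of reads between them is uncertain. AKR1C1 stood at 2.02, 1.74 and 2.15 FPKM in D-2, at 5.16, 2.96 and 5.05 in D-3, at 8.48, 9.32 and 8.43 in DP-3 day 1, at 4.06, 3.19 and 4.38 in DP-3, at 1.52, 3.52 and 9.54 in IT and at 4.05, 1.04 and 0.826 in FIT. DP-3 day 1 lay above D-2, D-3 and DP-3, while IT and FIT each spread several-fold within the group. AKR1C1 rose by 1.84 ± 0.10 on the log2 scale and AKR1C2 by 1.15 ± 0.11 in DP-3 day 1 against D-2 (edgeR adjusted p of 3.17e-05 and 0.000242), and the AKR1C2 call was lost in one edgeR fit of all 18 libraries (edgeR adjusted p = 0.0636). AKR1C2 stood at 7.58, 4.78 and 6.93 FPKM in D-3 and at 7.70, 4.24 and 4.28 in DP-3, against 3.58, 2.00 and 1.85 in FIT. It rose by 1.32 ± 0.29 in D-3 and by 1.26 ± 0.32 in DP-3 against FIT (edgeR adjusted p of 0.0327 and 0.0494), the first lost without D-3 replicate 1 or 3 or FIT replicate 2 or 3 and the second whichever library was left out. AKR1C3 stood at 9.65, 15.6 and 30.2 FPKM in IT and at 9.36, 6.43 and 6.41 in FIT, with a log2 fold change of 1.33 ± 0.40 (edgeR adjusted p = 0.258, DESeq2 adjusted p = 0.0369).

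**Figure D5:**
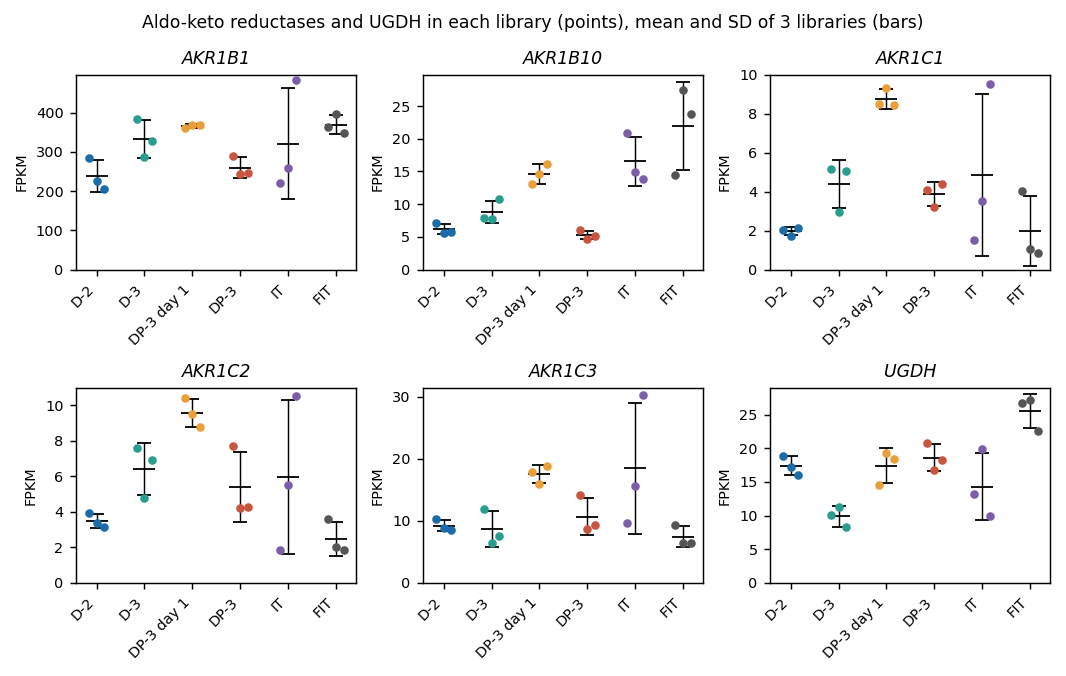
FPKM of the 5 aldo-keto reductases and of UGDH (panels, vertical axis from 0) in each library of the 6 groups (points), with the mean and SD of 3 libraries (bars). AKR1B10 and UGDH are highest in FIT, AKR1C1 and AKR1C2 are high in DP-3 day 1, and the 3 IT libraries of AKR1C1, AKR1C2 and AKR1C3 are far apart.

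Among the quinone, carbonyl and other detoxification genes, NQO1, PIR and OSGIN1 carried the changes. NQO1, the quinone reductase used as a readout of NRF2, stood at 28.5, 27.0 and 25.4 FPKM in D-2, at 37.9, 34.8 and 29.9 in D-3 and at 47.0, 59.8 and 61.8 in DP-3 day 1. It stood at 46.9, 28.2 and 29.2 FPKM in DP-3, at 22.3, 16.8 and 30.2 in IT and at 7.31, 9.08 and 10.3 in FIT. All FIT libraries lay below the other 15. NQO1 rose by 1.75 ± 0.15 on the log2 scale in D-2, by 1.88 ± 0.19 in D-3 and by 2.09 ± 0.24 in DP-3 against FIT (edgeR adjusted p of 0.00159, 0.00238 and 0.00825), held in every fit that left out a library, and had a log2 fold change of 1.38 ± 0.26 in IT (edgeR adjusted p = 0.16, DESeq2 adjusted p = 0.000479).

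PIR, an iron-binding nuclear protein, showed the same order of FIT below the rest. It stood at 1.76, 2.03 and 2.06 FPKM in FIT, at 5.38, 5.43 and 4.79 in IT and at 4.38 to 9.65 in the 12 libraries of the cultured line. PIR rose by 1.63 ± 0.17 on the log2 scale in D-2, by 1.45 ± 0.25 in D-3 and by 1.47 ± 0.22 in DP-3 against FIT (edgeR adjusted p of 0.00195, 0.0145 and 0.0161), with the D-3 call lost without D-3 replicate 1 or 3 or FIT replicate 1 and the DP-3 call without DP-3 replicate 1 or 3 or FIT replicate 1 or 2. In IT its log2 fold change was 1.40 ± 0.23, with an edgeR adjusted p of 0.155 and a DESeq2 adjusted p of 4.16e-08.

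OSGIN1, a growth inhibitor induced by oxidative stress, had the largest fold change of any member in D-3. It stood at 1.78, 1.76 and 1.73 FPKM in D-2, at 13.2, 8.88 and 7.91 in D-3 and at 8.38, 9.12 and 9.12 in DP-3 day 1. It stood at 2.73, 2.27 and 2.27 FPKM in DP-3, at 2.72, 2.58 and 2.01 in IT and at 1.41, 1.08 and 0.822 in FIT. D-3 and DP-3 day 1 overlapped each other and lay above the other 12 libraries. OSGIN1 rose by 3.11 ± 0.29 on the log2 scale in D-3 against FIT, 2.26 ± 0.21 in D-3 against D-2 and 2.02 ± 0.07 in DP-3 day 1 against D-2 (edgeR adjusted p of 0.00188, 0.0014 and 1.76e-05). It fell by 1.61 ± 0.11 from day 1 to day 14 of DP-3 (edgeR adjusted p = 0.00141), and rose by 1.25 ± 0.25 in DP-3 against FIT (edgeR adjusted p = 0.0288, held only without FIT replicate 3).

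UGDH, which makes the UDP-glucuronic acid used in glucuronidation, went the other way, at 26.7, 27.1 and 22.6 FPKM in FIT against 10.1, 11.3 and 8.23 in D-3. It fell by 1.43 ± 0.18 on the log2 scale in D-3 against FIT (edgeR adjusted p = 0.00543). In D-3 against D-2 (18.9, 17.3 and 16.02 FPKM) it fell by 1.07 ± 0.15 (edgeR adjusted p = 0.00318), a call lost without D-3 replicate 3, with an FPKM minimum of 1 (-0.91) and with limma on log2(FPKM + 0.1) (-0.82), under which the members called were 6 upregulated and 0 downregulated. CBR1, a carbonyl reductase, averaged 26.5 FPKM in FIT and 34.6 to 39.1 elsewhere, and its relative CBR3 averaged 4.73 to 7.54 FPKM, with no call. The epoxide hydrolase EPHX1 averaged 8.17 FPKM in D-2 and 17.2 in DP-3 day 1, and AIFM2, which reduces coenzyme Q against lipid peroxidation, averaged 4.39 FPKM in FIT and 7.63 in DP-3 day 1, again with no call.

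The other genes of the pathway were 54 listed genes, of which 51 were tested in each comparison. Against FIT, D-2 had 3 upregulated and 4 downregulated genes, D-3 had 11 and 0, DP-3 had 5 and 1, and IT had 0 and 0, beside 3.83% and 10.8%, 4.29% and 2.17%, 1.66% and 3.16%, and 0.0% of all genes. HMOX1, the heme-degrading enzyme, rose by 3.06 ± 0.40 on the log2 scale in D-3, by 2.08 ± 0.33 in DP-3 and by 1.28 ± 0.31 in D-2 against FIT (edgeR adjusted p of 0.00596, 0.0182 and 0.0204), with the DP-3 call lost without DP-3 replicate 1 or 3 or FIT replicate 1 and the D-2 call without FIT replicate 1 or either of D-2 replicates 1 and 2. Between cultures, 0 were upregulated and 8 downregulated in DP-3 against DP-3 day 1, 9 and 0 were called in D-3 against D-2 and 8 and 0 in DP-3 day 1 against D-2, beside 1.81% and 5.76%, 14.6% and 3.95%, and 13.1% and 4.13% of all genes. The higher counts in the comparisons with D-2 were therefore close to the share of all genes. The ferritin chain FTH1 averaged 336.4 FPKM in D-2 and 1429 in DP-3 day 1 and rose by 1.78 ± 0.04 (edgeR adjusted p = 1.76e-05), while TXNIP, which binds thioredoxin, fell by 2.10 ± 0.17 from day 1 to day 14 of DP-3 (edgeR adjusted p = 0.00156). SLC3A2, the partner chain of SLC7A11, named after its values were seen, rose by 1.3 ± 0.18 in D-3 and 1.11 ± 0.11 in DP-3 day 1 against D-2 and fell by 1.18 ± 0.11 from day 1 to day 14 of DP-3 (edgeR adjusted p of 0.00309, 0.000298 and 0.00182).

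Replicates were unequally close. The median coefficient of variation of the members with at least 1 FPKM was 5.13% in DP-3 day 1 and 5.92% in D-2, but 14.2% in DP-3, 17.4% in D-3, 17.9% in FIT and 22.8% in IT. The widest member was AKR1C1 in IT (85.9%) and FIT (91.3%).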

How the data were processed

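Poly(A) RNA of 18 libraries (3 in each of 6 groups, grouped by their labels) was sequenced as paired ends. The authors deposited 1 table with an estimated count and an FPKM value per gene and library. The submitters' processing notes name cutadapt 1.9, HISAT2 2.0.4 and StringTie 1.3.4d, and the genome build of the alignment is not given in the sources used here. The deposited estimated counts are whole numbers, but 34.2% of 223062 low counts (at most 50) were multiples of 4, against 25% for whole reads, so they were also divided by 4 as an alternative. No source used here says whether reads of the mouse host were removed from IT and FIT.

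For each comparison, its 6 libraries were fitted with edgeR 4.0.16 (TMM, quasi-likelihood F test, R 4.3.3), adjusted over all genes that passed the filter. Alternatives were other scaling, other FPKM minimums, limma 3.58.1 on log2 FPKM, DESeq2 1.42.0, a replicate block, one fit of all libraries and leaving out each library. The edgeR, limma and DESeq2 fits were also run on simulated counts, for D-2 against FIT and DP-3 against DP-3 day 1 only. Every gene and group had the same spread there, so the unequal spread of the real groups was not covered. Followed through every alternative were, for each comparison, up to 10 called members and up to 4 called other pathway genes with the largest changes and, where no member was called, members of at least 10 FPKM whose libraries did not overlap (81 pairs). After the values were seen, 12 more pairs that the text names were added. The members and lists were chosen with earlier results of these data known. Gene positions are those of the deposited table. GENCODE 29 (GRCh38) held all 37 members at overlapping positions, with the same ends for 10 of them. Promoter windows are from RefSeq.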

Additional observations from a re-analysis of the deposited data

How the results depend on the processing

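Of 1391 values of 93 gene and comparison pairs under the alternatives, 1228 kept their direction and side of the threshold, 140 lost the call, 19 gained it and 4 changed direction. Those 4 were of GCLC in D-2 against FIT, which was -0.10 at an FPKM minimum of 1, -0.0718 and -0.0643 with limma (pseudocount 0.1 and 1) and from -0.2078 without FIT replicate 3 to 0.2008 without FIT replicate 2 with each library left out (0.03 as reported). The count of members called in D-2 against FIT was 6 with limma on log2(FPKM + 1), and in DP-3 against FIT 5 (pseudocount 0.1) and 4 (pseudocount 1) by limma. In IT against FIT it was 8 with DESeq2 and 8 in one fit of all 18 libraries, and in DP-3 day 1 against D-2 it was 10 with limma on log2(FPKM + 0.1). The cause was not tested. Without 1 library, the counts against FIT ran from 9 to 11 for D-2, from 6 to 10 for D-3, from 2 to 8 for DP-3 and from 0 to 0 for IT, and otherwise from 4 to 7 in DP-3 against DP-3 day 1, 4 to 7 in D-3 against D-2 and 5 to 7 in DP-3 day 1 against D-2, and from 25 to 31 across the 6 groups. Same-numbered replicates did not deviate together (correlations of -0.044 to 0.043 over all genes), so the numbers are not taken as pairs. With a replicate block the count against FIT was 3 for DP-3, 12 for D-2, 10 for D-3 and 0 for IT, and otherwise 4 in DP-3 against DP-3 day 1, 4 in D-3 against D-2, 6 in DP-3 day 1 against D-2 and 29 across the 6 groups. FIT replicate 3, the shallowest library at 23721666 estimated counts, enters every comparison with FIT, and the effect of its depth on precision was not measured.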
